A study of Rattus norvegicus with 18 samples.

Results

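The genes described here encode interleukins, chemokines, tumour necrosis factor (TNF) family proteins and interferons, together with the receptors that bind them. They were taken by gene symbol, from probe sets annotated with a single symbol. The symbol had to start with Il and a digit, Ccl, Cxcl, Ccr and a digit, Cxcr, Cx3c, Tnf or Ifn, and a further such gene is not reported here. The rule used no measured value except that a gene read by several probe sets was represented by its brightest one. It was set with earlier results of these data known. There were 61 such members, read by 89 probe sets, of 4736 genes and 8740 probe sets tested. They comprised 16 interleukins, 12 interleukin receptors, 13 chemokines, 7 chemokine receptors, 3 TNF ligands, 6 TNF receptors and 4 interferons or interferon receptors.

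RNA came from the femur of female Sprague-Dawley rats, an outbred strain with no engineered allele, whose age at fracture was 6 weeks for the young group, 26 for the adult group and 52 for the older group. The fractured groups had a closed mid-shaft break of a femur that held an intramedullary steel rod and were taken at 3 days or at 1, 2, 4 or 6 weeks, while the no-fracture group was the sham control of time 0, called intact here. The segment measured was the middle of the shaft, so it held callus, cortical bone and marrow together, and fewer cells of a type cannot be told apart from less RNA per cell. There was 1 array for each age and time, 18 in all, each of RNA pooled from 2 rats. The 3 ages therefore stood in as the replicates of a time. The p-values measured the spread left over all 18 arrays after additive terms for time and age. That spread holds differences between pools together with any response to fracture that differed with age. Signals in triplets below are those of young, adult and older rats, in that order.

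Cytokines are small secreted proteins by which injured and immune cells signal to each other. Interleukin 6 acts through its receptor chain and the shared chain gp130 (Il6st) and turns on the transcription factor STAT3, while interleukin 1 and TNF act largely through NF-kappaB. Chemokines draw particular blood cells into a tissue through receptors on those cells. In bone repair these signals are known to mark the early inflammatory stage, and several of them also regulate the cells that form and resorb bone.

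Members moved in both directions with fracture, and their number fell with healing time. A member was called where limma's Benjamini-Hochberg adjusted p over all 8740 probe sets was below 0.05. At 3 days 11 members were called higher and 11 lower than in intact femora, which is 18.03% of the 61 each way, beside 20% of all 4736 genes called higher and 21.9% called lower. At 1 week 9 were higher and 9 lower (14.75% each, beside 18.4% and 19.6% of all genes). At 2 weeks 7 were higher and 8 lower (11.48% and 13.11%, beside 16.2% and 18.3%). At 4 weeks 7 were higher and 6 lower (11.48% and 9.836%, beside 12.3% and 11%). At 6 weeks 5 were higher and 2 lower (8.197% and 3.279%, beside 8.74% and 8.78%). The share of members called was thus below that of all genes in each direction at all 5 times, and these counts are no result about the members as a group. The median log2 change of the 61 members was -0.28 at 3 days, beside -0.10 for all genes, and 0 at 6 weeks, beside -0.04.

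**Figure D1:**
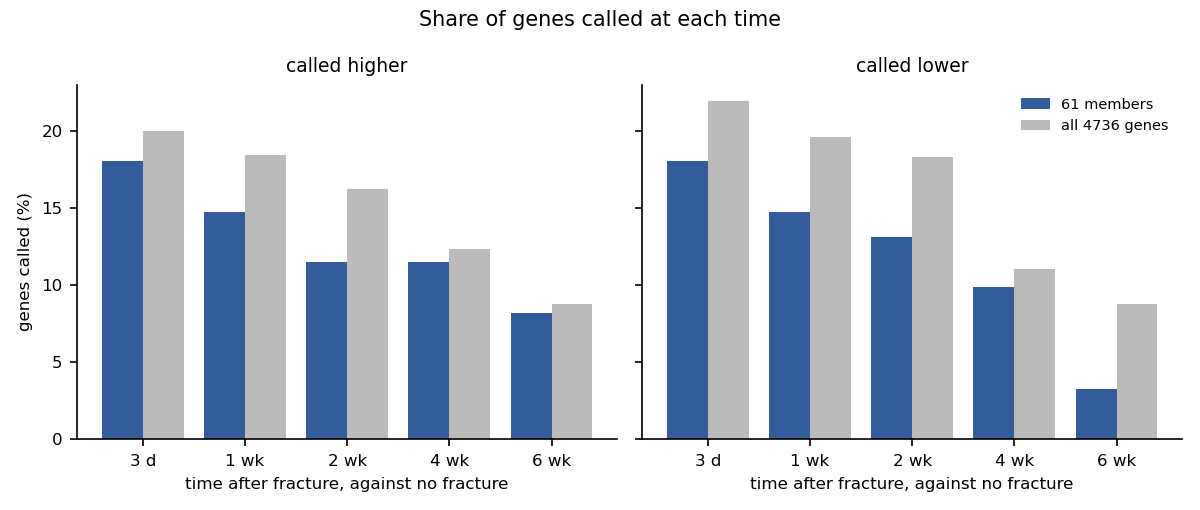
Bars give the percentage of genes called higher (left) or lower (right) at each time against no fracture, for the 61 members (blue) and for all 4736 genes (grey). The blue bars lie below the grey bars at every time in both panels, from 18.03% beside 20% at 3 days to 8.197% beside 8.74% at 6 weeks among genes called higher.

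In all 26 members were called at 1 or more times, 12 only higher, 13 only lower and 1, Cxcl14, lower early and higher late. The other 35 were called at no time. Over the whole time course limma's F test called 20 members (32.79%), beside 39.4% of all genes. Of the 26, Il6r, Il15, Il1rl2, Il18, Il1a, Ccl4 and Tnfrsf8 did not pass the F test (adjusted p = 0.052 to 0.22). Signal level went with the count of members called at any time. Of the 10 members with a mean signal below 20, which was set as the floor, 1 was called at any time, against 4 of 21 with a mean of 20 to 100, 6 of 11 with a mean of 100 to 200 and 15 of 19 with a mean of 200 or more. No share of all genes called at any time, or within these signal ranges, is given here. The counts of members called at any time are therefore no result about the members. Ccl11, Cxcl3, Il2 and Il7 were below the floor on all 18 arrays and no change could have been seen in them. All 5 times were set against the same 3 intact arrays, so the comparisons are not independent of each other. Of the 75 called values, 40 held on leaving out any 1 of the 6 arrays compared and 35 did not. With a floor of 100, 49 of them were kept. The calls lost there included all 5 of Tnfsf4, 4 of 5 of Ifngr1, all 3 of Il10 and those of Cxcl13 at 2, 4 and 6 weeks.

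**Figure D2:**
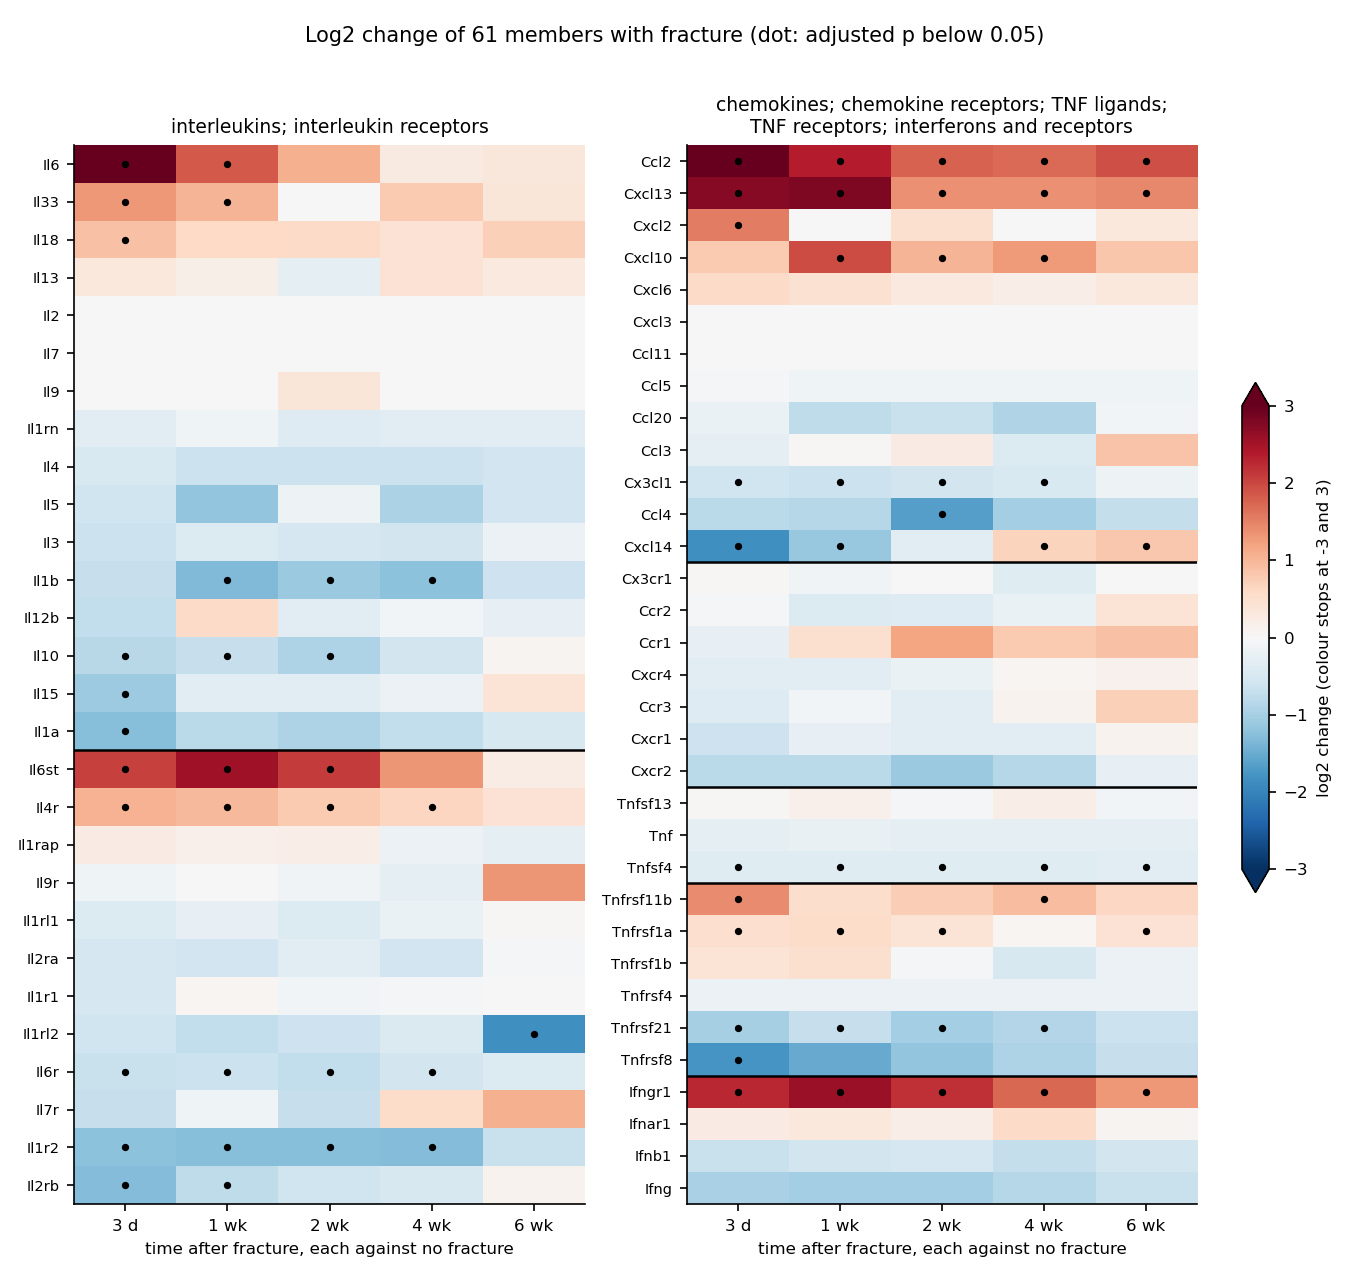
Colour gives the log2 change of each of the 61 members at 5 times against no fracture (red higher, blue lower), and a dot marks an adjusted p below 0.05. Horizontal lines separate the role classes. Dots run across all 5 columns for Ccl2, Cxcl13 and Ifngr1 (higher) and Tnfsf4 (lower, by 0.37 or less), and the 7 chemokine receptors have none.

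RNA levels of cell type markers also changed with fracture, and these values stand beside the results here. The marker counts are to be read beside the shares of all genes called at each time, given above. All 5 measured neutrophil markers were lower at 3 days, with a summed signal of 1008 to 14050 against 40910 to 53150 with no fracture, and 2 of 5 were still lower at 6 weeks. Of 13 measured T and killer cell markers 5 were lower and 0 higher at 3 days, both measured B cell markers were lower, and 6 of 10 mast cell markers were lower and 0 higher. Neutrophil markers were lower in 5 of 5 at 1, 2 and 4 weeks as well. At 4 and 6 weeks 0 of 2 B cell markers were called in either direction, and of the mast cell markers 4 were higher and 1 lower at 4 weeks and 4 higher and 2 lower at 6 weeks. Macrophage markers went both ways, with 3 of 6 higher and 2 lower at 3 days. Bone and cartilage markers were higher in 7 of 12, endothelium markers in 1 of 5, and skeletal muscle markers were lower in 8 of 9. Actin probe sets at the 3′ and 5′ ends gave a signal ratio, which rises as RNA degrades, of 1.48 to 1.90 on the 12 arrays of 3 days to 4 weeks and 1.885 to 2.72 at 6 weeks, against 2.10 to 2.61 on intact arrays. All 12 arrays of 3 days to 4 weeks were thus below all 3 intact ones, and those of 6 weeks overlapped them. With that ratio added to the fit, Ccl2, Cxcl14, Cxcl2, Il6, Tnfrsf21 and Tnfsf4 were still called at 3 days, Ccl2, Cxcl13, Cxcl14, Il6 and Tnfsf4 at 1 week, Tnfrsf21 and Tnfsf4 at 2 weeks, Tnfsf4 at 4 weeks and Ccl2, Cxcl14, Il1rl2 and Tnfsf4 at 6 weeks. All other calls of members were lost in that fit, and the part of RNA quality in them was not tested.

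Il6, the leading cytokine of the acute response, had the largest change of any member. Its signals were 8.2, 18.4 and 11.8 with no fracture, 416, 575 and 1253 at 3 days, 32.8, 90.4 and 124 at 1 week, 21.1, 69.6 and 49.7 at 2 weeks, 9, 4.6 and 34.2 at 4 weeks and 12.9, 40.2 and 9.3 at 6 weeks. All 3 intact arrays were below the floor and the arrays at 3 days started at 416, with the older rats highest. The change at 3 days was at least 33.5-fold against the floor (log2 change 5.07 ± 0.44, adjusted p = 1.9e-05; SE here and below) and at 1 week at least 3.59-fold (log2 change 1.84 ± 0.44, adjusted p = 0.0074). From 2 weeks on, Il6 did not pass the test (adjusted p = 0.084 at 2 weeks), and 2 of 3 arrays were below the floor at 4 and at 6 weeks. A second, dimmer Il6 probe set had signals of 91.6, 162 and 439.9 at 3 days against 3.9, 16.4 and 13.9 with no fracture (log2 change 3.22, adjusted p = 7.9e-05) and was below the floor on all arrays of the later times. The rise at 3 days was called under each of the 13 alternatives in which the probe set could be tested, among them the fit of only the 6 arrays compared.

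Il33 and Il18, both of the interleukin 1 family, were the other interleukins called higher. Il33 encodes a protein that damaged cells release. Its signals were 84.4, 163 and 154 with no fracture, 306, 246 and 422 at 3 days, 126, 380.3 and 376 at 1 week, 74, 145 and 205 at 2 weeks, 120.2, 255 and 349 at 4 weeks and 118, 121 and 312 at 6 weeks. The change was 1.30 ± 0.32 on the log2 scale at 3 days (adjusted p = 0.0085) and 1.03 ± 0.32 at 1 week (adjusted p = 0.029), where the groups overlapped and the array of young rats was at 126. The 1-week call was lost without any of 4 single arrays (adjusted p up to 0.14). Il18 had signals of 594, 568 and 589 at 3 days against 278, 306 and 380 with no fracture (log2 change 0.87 ± 0.27, adjusted p = 0.023). Without any of 4 arrays its adjusted p was 0.066 to 0.078, but the dimmer Il18 probe set was higher at all 5 times (log2 change 1.60, adjusted p = 0.0026 at 3 days and 1.30, adjusted p = 0.022 at 6 weeks).

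Il1a and Il1b, the classic interleukin 1 cytokines, were each called lower at 1 or more times and higher at none. Il1b signals were 376, 473 and 497 with no fracture, 228, 313 and 289.5 at 3 days, 214, 143 and 183 at 1 week, 209.9, 249 and 166 at 2 weeks, 248, 168 and 165 at 4 weeks and 417, 239.9 and 244 at 6 weeks. No array at 3 days, 1, 2 or 4 weeks reached the lowest intact array. The change was -0.70 ± 0.26 at 3 days, which just missed the threshold (adjusted p = 0.051), -1.33 ± 0.26 at 1 week (adjusted p = 0.0026), -1.12 ± 0.26 at 2 weeks (adjusted p = 0.0074) and -1.23 ± 0.26 at 4 weeks (adjusted p = 0.0086). Those 3 calls held without any 1 array. Il1a had 66.4, 48.5 and 130.1 at 3 days against 143, 252 and 165 with no fracture (log2 change -1.27 ± 0.39, adjusted p = 0.023), a call lost without any of 3 arrays (adjusted p up to 0.1). A dimmer Il1a probe set was lower at 3 days, 1 week and 2 weeks (log2 change -1.30, -1.72 and -1.70, adjusted p = 0.011, 0.003 and 0.0037). Its signals at 1 and 2 weeks were near or below the floor, and a further Il1a probe set was below the floor on all arrays. The antagonist of both, Il1rn, had a signal of 13.5 to 36.8 with 10 of 18 arrays below the floor, and was not called.

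Il10, an anti-inflammatory interleukin, and Il15, which supports killer and memory T cells, were also lower. Il10 signals were 37.2, 76.2 and 65.6 at 3 days, 71.4, 61.1 and 57.6 at 1 week and 49.5, 64 and 48.7 at 2 weeks, against 109, 112 and 87.1 with no fracture, and the groups did not overlap at any of these times. Its log2 change was -0.84 ± 0.24 at 3 days, -0.69 ± 0.24 at 1 week and -0.93 ± 0.24 at 2 weeks (adjusted p = 0.017, 0.043 and 0.013), and at 6 weeks the signals were back at 115, 108 and 99.4. The 1-week call was lost without any 1 of the 6 arrays and the 3-day call without the young intact array (adjusted p = 0.051). A second Il10 probe set was below the floor on all arrays. Il15 had 252, 219.7 and 131 at 3 days against 367, 248 and 749 with no fracture (log2 change -1.08 ± 0.36, adjusted p = 0.033), where the groups overlapped and the older intact array stood well above the other two. The call was lost without that array or the older array of 3 days (adjusted p 0.11 to 0.14), and under quantile normalization. Neither of the dimmer Il15 probe sets was called at any time (log2 change -0.43 and -0.84 at 3 days, adjusted p = 0.47 and 0.073). The remaining 9 interleukins were called at no time. Of these Il2 and Il7 were below the floor on all arrays, Il9 was above it on 1 array and Il4 on 4, and Il3, Il5, Il12b and Il13 had signals of 11.7 to 168.

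Among interleukin receptors, the chain that carries the Il6 signal rose and the chain that binds Il6 fell. Il6st, which encodes gp130, had signals of 62.7, 18.4 and 50 with no fracture, 122, 187 and 195 at 3 days, 161, 253 and 298 at 1 week, 163, 151 and 202 at 2 weeks, 68.9, 144 and 101 at 4 weeks and 6.9, 55.2 and 90.8 at 6 weeks. Every array at 3 days, 1 week and 2 weeks was above every intact array. The change was 4.13-fold at 3 days (log2 change 2.05 ± 0.49, adjusted p = 0.007), 5.79-fold at 1 week (log2 change 2.53 ± 0.49, adjusted p = 0.0026) and 4.29-fold at 2 weeks (log2 change 2.10 ± 0.49, adjusted p = 0.0077), with the adult intact array below the floor. At 6 weeks the young array was down to 6.9 while the older one was still at 90.8. Il6r, the binding chain, had 380, 413 and 311 at 3 days and 463, 285 and 318 at 2 weeks, against 528, 504 and 719 with no fracture, and every fractured array of every time was below every intact array. Its log2 change was -0.66 ± 0.18, -0.65 ± 0.18, -0.73 ± 0.18 and -0.56 ± 0.18 at 3 days, 1, 2 and 4 weeks (adjusted p = 0.015, 0.017, 0.011 and 0.048). The Il6st calls held without any 1 array, and each of the 4 Il6r calls was lost without 1 or more of the arrays (5 of 6 arrays at 4 weeks, adjusted p up to 0.18).

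Il4r, the receptor chain shared by interleukins 4 and 13, rose, while its ligand Il4 was near the floor. Its signals were 529.7, 579 and 761 at 3 days, 492, 581 and 719.5 at 1 week, 459, 554 and 542 at 2 weeks and 457, 578 and 399 at 4 weeks, against 366, 273 and 271 with no fracture. No array of these 4 times was as low as the highest intact array. The change was 2.05-fold at 3 days (log2 change 1.04 ± 0.20, adjusted p = 0.0022), 0.98 ± 0.20 on the log2 scale at 1 week (adjusted p = 0.0038), 0.78 ± 0.20 at 2 weeks (adjusted p = 0.013) and 0.65 ± 0.20 at 4 weeks (adjusted p = 0.043). The 2-week call was lost without the adult or the older intact array (adjusted p up to 0.065) and the 4-week call without any of 4 arrays (up to 0.18).

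Il1r2, the decoy receptor that binds interleukin 1 without signalling, fell with its ligand Il1b. Signals were 156, 171 and 182 at 3 days, 181, 172 and 139 at 1 week, 153, 213 and 137 at 2 weeks and 233, 127 and 139.9 at 4 weeks, against 401, 242 and 652 with no fracture. The intact arrays were far apart and yet all above these 12 arrays. The log2 change was -1.23 ± 0.34, -1.29 ± 0.34, -1.28 ± 0.34 and -1.31 ± 0.34 (adjusted p = 0.013, 0.012, 0.014 and 0.02). The calls at 3 days, 2 weeks and 4 weeks were lost without the older intact array, the highest of all (adjusted p up to 0.067), and also without 1 other single array at 3 days and any of 2 others at 2 and at 4 weeks (up to 0.09). The signalling receptor Il1r1 had signals of 5 to 71.7 and was not called.

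Il2rb, the chain that binds interleukins 2 and 15, had 132, 128 and 156 at 3 days against 358, 241 and 455 with no fracture (log2 change -1.30 ± 0.25, adjusted p = 0.002). It was lower at 1 week too (log2 change -0.76 ± 0.25, adjusted p = 0.036), with overlapping groups, and was lost there without any of 3 arrays (adjusted p up to 0.15). By 6 weeks it stood at 479, 305 and 329.5. Il1rl2, the interleukin 36 receptor, had signals of 108, 271 and 315 with no fracture, 121, 233 and 95 at 3 days, 106, 92.7 and 205 at 1 week, 101, 144 and 178 at 2 weeks, 144, 129 and 203 at 4 weeks and 77.2, 41.6 and 63.2 at 6 weeks. The 6-week arrays were the 3 lowest of the 18, and 6 weeks was the only time called (log2 change -1.84 ± 0.45, adjusted p = 0.02). Whether this change differed from those of the other times was not tested, and it was lost without any of 4 arrays (adjusted p up to 0.098). Il7r and Il9r had a log2 change of 1.07 ± 0.52 and 1.32 ± 0.44 at 6 weeks and did not pass the test, and neither did Il2ra, with signals of 7.2 to 53.4, or the accessory chain Il1rap, with 68.3 to 203. The falls of Il1b, Il1r2 and Il2rb stood beside neutrophil markers that were lower in 5 of 5 at 3 days, 1, 2 and 4 weeks. Of 13 T and killer cell markers, 5 were lower and 0 higher at 3 days, and 5 lower and 1 higher at 1 week. At 2 weeks 2 of these were lower and 1 higher, and at 4 weeks 1 was lower and 1 higher. The part of either set of markers in the falls was not tested.

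**Figure D3:**
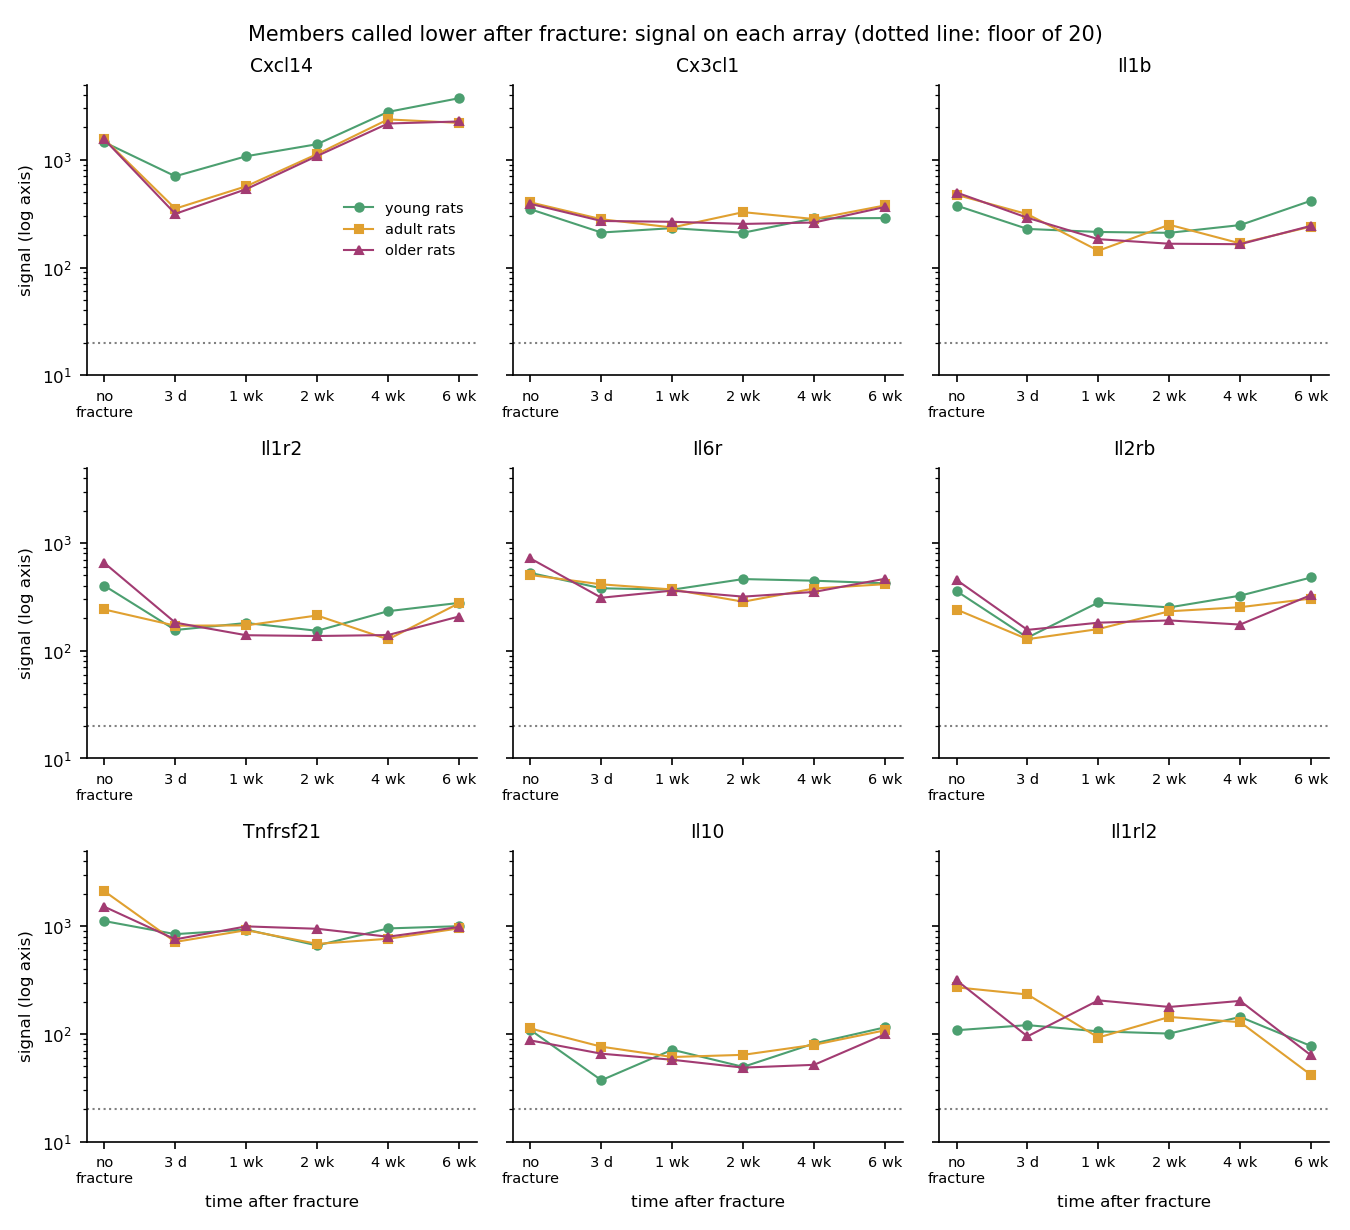
Each panel shows the signal of 1 member (log axis) on the 18 arrays over time for young, adult and older rats. Il6r and Tnfrsf21 are below their intact values on every fractured array, while Cxcl14 lies below them at 3 days and above them at 4 and 6 weeks (2172 to 2784 at 4 weeks).

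Ccl2 and Cxcl13 were among the 3 members called higher at all 5 times. Ccl2, which draws monocytes, had signals of 169.6, 214 and 205 with no fracture, 1059, 1875 and 2478 at 3 days, 739.5, 1112 and 1185 at 1 week, 798, 621 and 598 at 2 weeks, 473, 829.5 and 635 at 4 weeks and 474, 1109.9 and 803 at 6 weeks. Every one of the 15 fractured arrays was above every intact array, the lowest of them by more than 2-fold. The change was 8.71-fold at 3 days (log2 change 3.12 ± 0.27, adjusted p = 1.9e-05), 5.08-fold at 1 week (adjusted p = 0.00015), 3.41-fold at 2 weeks (adjusted p = 8e-04), 3.22-fold at 4 weeks (adjusted p = 0.0028) and 3.84-fold at 6 weeks (adjusted p = 0.0016). A second Ccl2 probe set was higher at all 5 times as well (log2 change 3.18, adjusted p = 3.2e-05 at 3 days). The calls at 3 days and 1 week held under all 14 alternatives, and all 5 held without any 1 array.

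Cxcl13, which attracts B cells, had signals of 44.4, 78.4 and 49.3 with no fracture, 332, 348 and 431 at 3 days, 209.6, 428 and 637 at 1 week, 63.7, 205 and 225 at 2 weeks, 138, 187 and 114 at 4 weeks and 72.5, 282 and 170.2 at 6 weeks. The peak was at 3 days in young rats and at 1 week in adult and older rats, and the young arrays of 2 and 6 weeks fell among the intact values. The change was 6.61-fold at 3 days (log2 change 2.73 ± 0.41, adjusted p = 0.00043) and 6.93-fold at 1 week (log2 change 2.79 ± 0.41, adjusted p = 0.00055). At 2, 4 and 6 weeks it was 1.37 ± 0.41, 1.37 ± 0.41 and 1.45 ± 0.41 on the log2 scale (adjusted p = 0.025, 0.036 and 0.036), and each of these 3 calls was lost without any of 4 arrays (adjusted p up to 0.16). Both measured B cell markers, Cd79b and Igll1, were lower at 3 days, 1 week and 2 weeks (log2 change -2.67 and -1.65 at 3 days).

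Cxcl10, which attracts activated T cells and is induced by interferons, had its highest signal at 1 week at all 3 ages, where Ccl2 was highest at 3 days. Its signals were 74.1, 52 and 53.1 with no fracture, 124, 76.9 and 109.8 at 3 days, 294, 260.1 and 160 at 1 week, 134, 142 and 90.2 at 2 weeks, 224, 117 and 112 at 4 weeks and 74.6, 167 and 94 at 6 weeks. All 15 fractured arrays were above the highest intact array, though at 6 weeks the young array was above it by less than 1 unit. At 3 days the change did not pass the test. It was 3.91-fold at 1 week (log2 change 1.97 ± 0.34, adjusted p = 0.0014), 1.02 ± 0.34 on the log2 scale at 2 weeks (adjusted p = 0.04) and 1.28 ± 0.34 at 4 weeks (adjusted p = 0.024). The 1-week call held without any 1 array, the 2-week call was lost without any 1 of 6 (adjusted p up to 0.14) and the 4-week call without any of 4 (up to 0.09).

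Cxcl2, which attracts neutrophils, was above the floor on all arrays only at 3 days. Its signals were 6.3, 12.7 and 9.6 with no fracture, 31, 142 and 45.1 at 3 days, 7, 6.6 and 5.4 at 1 week, 8.3, 53.8 and 3.3 at 2 weeks, 6.7, 4.4 and 6 at 4 weeks and 9.7, 38.1 and 8.9 at 6 weeks. The change at 3 days was at least 2.92-fold (log2 change 1.54 ± 0.39, adjusted p = 0.0091), and the adult array was more than 3-fold above the other two. Of the 12 later arrays 10 were below the floor, and the 2 above it were adult arrays. Neutrophil markers, as given above, were lower at the same time. Its relative Cxcl6 had 97.1 to 229 and was not called, and Cxcl3 was below the floor throughout.

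Cxcl14, a chemokine of epithelial and stromal cells, was the only member called in both directions. Signals were 1455, 1557 and 1543 with no fracture, 703, 352 and 315 at 3 days, 1079, 568 and 534 at 1 week, 1396, 1130.1 and 1085 at 2 weeks, 2784, 2371 and 2172 at 4 weeks and 3729, 2202 and 2268 at 6 weeks. It was lower at 3 days (log2 change -1.83 ± 0.21, adjusted p = 7.8e-05) and 1 week (log2 change -1.14 ± 0.21, adjusted p = 0.0018), not called at 2 weeks, and higher at 4 weeks (log2 change 0.68 ± 0.21, adjusted p = 0.039) and 6 weeks (log2 change 0.80 ± 0.21, adjusted p = 0.025). The groups did not overlap at any of the 4 called times, and the dimmer probe set of the gene was called in the same directions at the same times. The early falls held without any 1 array, and the late rises were each lost without any of 4 (adjusted p up to 0.14 at 4 weeks and 0.077 at 6 weeks). The summed signal of the 10 mast cell markers was 4866 to 7612 at 4 weeks and 3764 to 6743 at 6 weeks, against 3121 to 4189 with no fracture. Of these markers 4 were higher and 1 lower at 4 weeks, and 4 higher and 2 lower at 6 weeks. Bone and cartilage markers were higher in 11 of 12 at 4 weeks and in 7 of 12 at 6 weeks, with 0 lower. The part of either set of markers in the late rises was not tested. Cxcl14 had the lowest F-test p of all members (adjusted p = 7.2e-05).

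Cx3cl1, which encodes the membrane-anchored chemokine fractalkine, had 211, 281 and 270.4 at 3 days and 232, 235 and 266 at 1 week, against 347, 403 and 389.8 with no fracture. Its log2 change was -0.59 ± 0.12, -0.64 ± 0.12, -0.55 ± 0.12 and -0.46 ± 0.12 at 3 days, 1, 2 and 4 weeks (adjusted p = 0.0029, 0.0023, 0.0056 and 0.022), and the 4-week call was lost without any of 4 arrays (adjusted p up to 0.098). Neither of the dimmer probe sets of the gene was called at any time. Ccl4, which attracts monocytes and T cells, had signals of 65, 69.1 and 93.1 with no fracture, 36.4, 38.2 and 55.9 at 3 days, 36.2, 33.8 and 58.5 at 1 week, 19.6, 24.4 and 27.6 at 2 weeks, 64.5, 39.6 and 14.3 at 4 weeks and 22, 82.1 and 51.9 at 6 weeks. It was called lower at 2 weeks alone (log2 change -1.65 ± 0.48, adjusted p = 0.023), where all 3 arrays were far below the intact ones, and was lost without any of 5 arrays (adjusted p up to 0.076). Its close relative Ccl3, with 12 to 129, and Ccl20, with 8.2 to 99.9, were not called. Ccl5 was above the floor on 2 arrays.

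**Figure D4:**
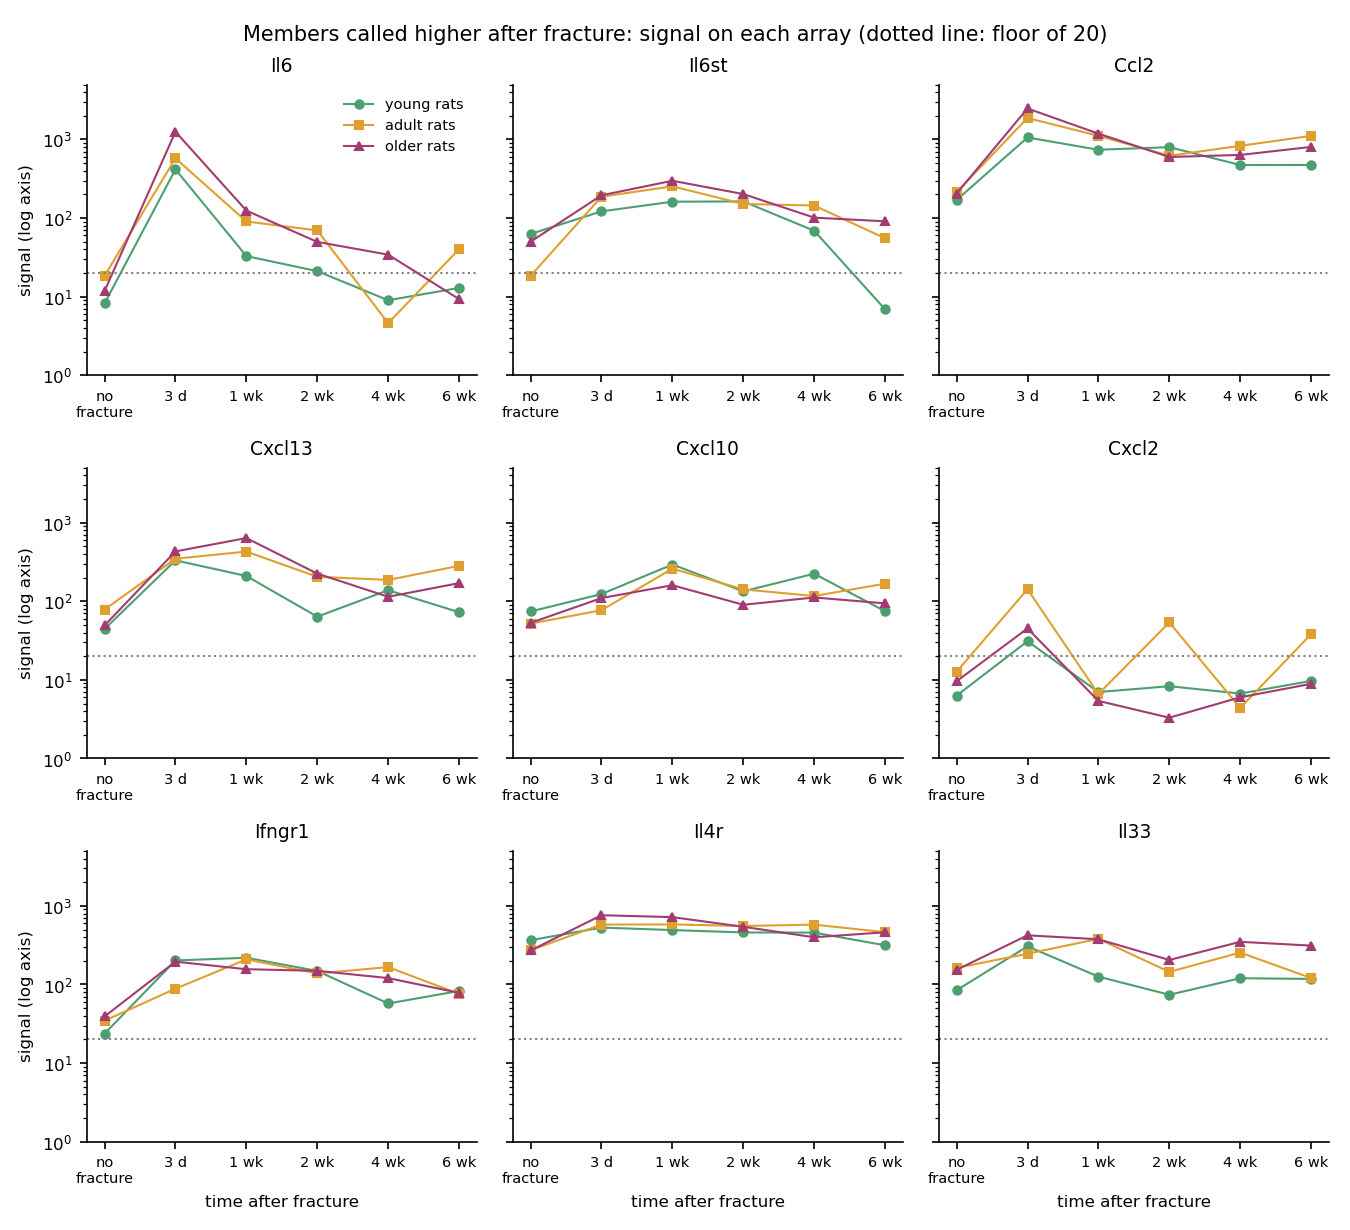
Each panel shows the signal of 1 member (log axis) on the 18 arrays over time for young, adult and older rats. Il6 is below the floor of 20 with no fracture and at 416 to 1253 at 3 days, while Ccl2 stays above its intact values on all 15 fractured arrays.

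NF-kappaB, C/EBP and STAT factors are known to act on some genes of this kind, and their action was not measured here. Promoter sequences are shown for 4 members that rose and held a match to an NF-kappaB or C/EBP motif. RefSeq windows (build GRCr8, the 250 bases before the annotated start) were at hand for 47 of the 61 members, Ccl2 not among them. Each window was searched on both strands for the NF-kappaB decamer, for the C/EBP core TTGCNNAA and for the STAT core TTCNNNGAA, and matches are in capitals. The windows run 5′ to 3′ on the gene's own strand, at chr4:5894576-5894825 (minus strand), chr14:17467256-17467505 (minus), chr14:15988816-15989065 (plus) and chr14:13917921-13918170 (minus).
Il6: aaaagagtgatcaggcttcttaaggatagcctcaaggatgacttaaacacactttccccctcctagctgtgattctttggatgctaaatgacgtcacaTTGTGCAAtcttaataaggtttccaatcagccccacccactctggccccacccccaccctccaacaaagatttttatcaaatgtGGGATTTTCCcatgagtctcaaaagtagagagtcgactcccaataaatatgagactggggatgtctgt
Cxcl2: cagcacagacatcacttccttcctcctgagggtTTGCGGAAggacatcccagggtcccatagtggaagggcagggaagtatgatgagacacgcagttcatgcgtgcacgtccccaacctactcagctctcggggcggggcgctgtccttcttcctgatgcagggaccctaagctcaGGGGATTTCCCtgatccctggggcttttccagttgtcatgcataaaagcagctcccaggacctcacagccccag
Cxcl10: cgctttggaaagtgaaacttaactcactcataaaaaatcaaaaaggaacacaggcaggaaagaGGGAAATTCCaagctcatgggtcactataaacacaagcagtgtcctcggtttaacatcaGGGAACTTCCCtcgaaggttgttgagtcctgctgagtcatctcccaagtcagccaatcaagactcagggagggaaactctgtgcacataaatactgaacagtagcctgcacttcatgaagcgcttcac
Cxcl13: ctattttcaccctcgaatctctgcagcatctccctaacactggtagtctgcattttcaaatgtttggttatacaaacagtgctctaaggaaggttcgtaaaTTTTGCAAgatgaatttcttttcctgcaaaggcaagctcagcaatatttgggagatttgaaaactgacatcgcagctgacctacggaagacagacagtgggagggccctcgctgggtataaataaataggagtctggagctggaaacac
Il6 held an NF-kappaB match 68 to 59 bases before the start and a C/EBP match 152 to 145 bases before it. Cxcl2 held overlapping NF-kappaB matches from 74 to 64 bases and a C/EBP match from 217 to 210. In Cxcl10 there was an NF-kappaB match from 187 to 178 bases and an overlapping pair from 128 to 118, with no C/EBP match, and in Cxcl13 a C/EBP match from 149 to 142 alone. Ifngr1, Il6st, Il33, Il4r, Il18 and Tnfrsf1a also rose and had a window, but held no match and are not shown. The NF-kappaB decamer was found in 10 of the 47 member windows (21.3%), beside 6.41% of all 27457 windows, the C/EBP core in 9 (19.1%, beside 9.2%) and the STAT core in 0, beside 7.52%. Among members with a window the NF-kappaB decamer was in 2 of 9 called higher at 3 days, 1 of 7 called lower and 7 of 31 not called. The C/EBP core was in 3 of 9 called higher, 0 of 7 called lower and 6 of 31 not called. A match is a run of letters and no measured binding site.

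No chemokine receptor was called at any time on its brightest probe set. Ccr1, a receptor of monocytes and other leukocytes, had 361, 357 and 338 at 2 weeks against 154, 145 and 168 with no fracture, and the groups did not overlap, but the change missed the threshold (log2 change 1.18 ± 0.47, adjusted p = 0.078). The neutrophil receptors Cxcr1 and Cxcr2 had a log2 change of -0.62 ± 0.27 and -0.82 ± 0.54 at 3 days (adjusted p = 0.093 and 0.26). Ccr2, the receptor of Ccl2, had signals of 6.9 to 46.4 with 7 of 18 arrays below the floor, and Ccr3 had 4.5 to 49. Cx3cr1, the receptor of Cx3cl1, had 72.1 to 193 with no called change.

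Cxcr4, the receptor that holds blood-forming cells in marrow, differed between its probe sets. The brightest had 682, 583 and 566 at 3 days against 785, 843 and 668 with no fracture (log2 change -0.32, adjusted p = 0.064), and only its F test passed (adjusted p = 0.041). Another, rc_AA945737_at, which was dimmer on average over the 18 arrays, had 418, 220 and 249 at 3 days against 1348, 1261 and 1140.3 with no fracture (log2 change -2.14, adjusted p = 2e-05) and was lower at all 5 times. The remaining Cxcr4 probe set was lower at 3 days and 1 week (log2 change -0.86, adjusted p = 0.015 at 3 days). Il1rl1, the receptor of Il33, showed the same kind of split. Its brightest probe set had 86.5, 90.1 and 93.3 at 3 days against 93.1, 141 and 132 with no fracture and was not called, while the dimmer U04319_at had 368, 267 and 368 at 3 days against 33.8, 25 and 9.2 with no fracture (log2 change 3.69, adjusted p = 0.00073) and 141, 311 and 248 at 1 week (log2 change 3.11, adjusted p = 0.0026). Which transcript each of these probe sets reads is not given in the sources used here. At 3 days 9 called members had a further probe set, and in 5 of them (Ccl2, Cxcl14, Il18, Il1a and Il6) a further one was called too. No member had probe sets called in opposite directions at any time.

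**Figure D5:**
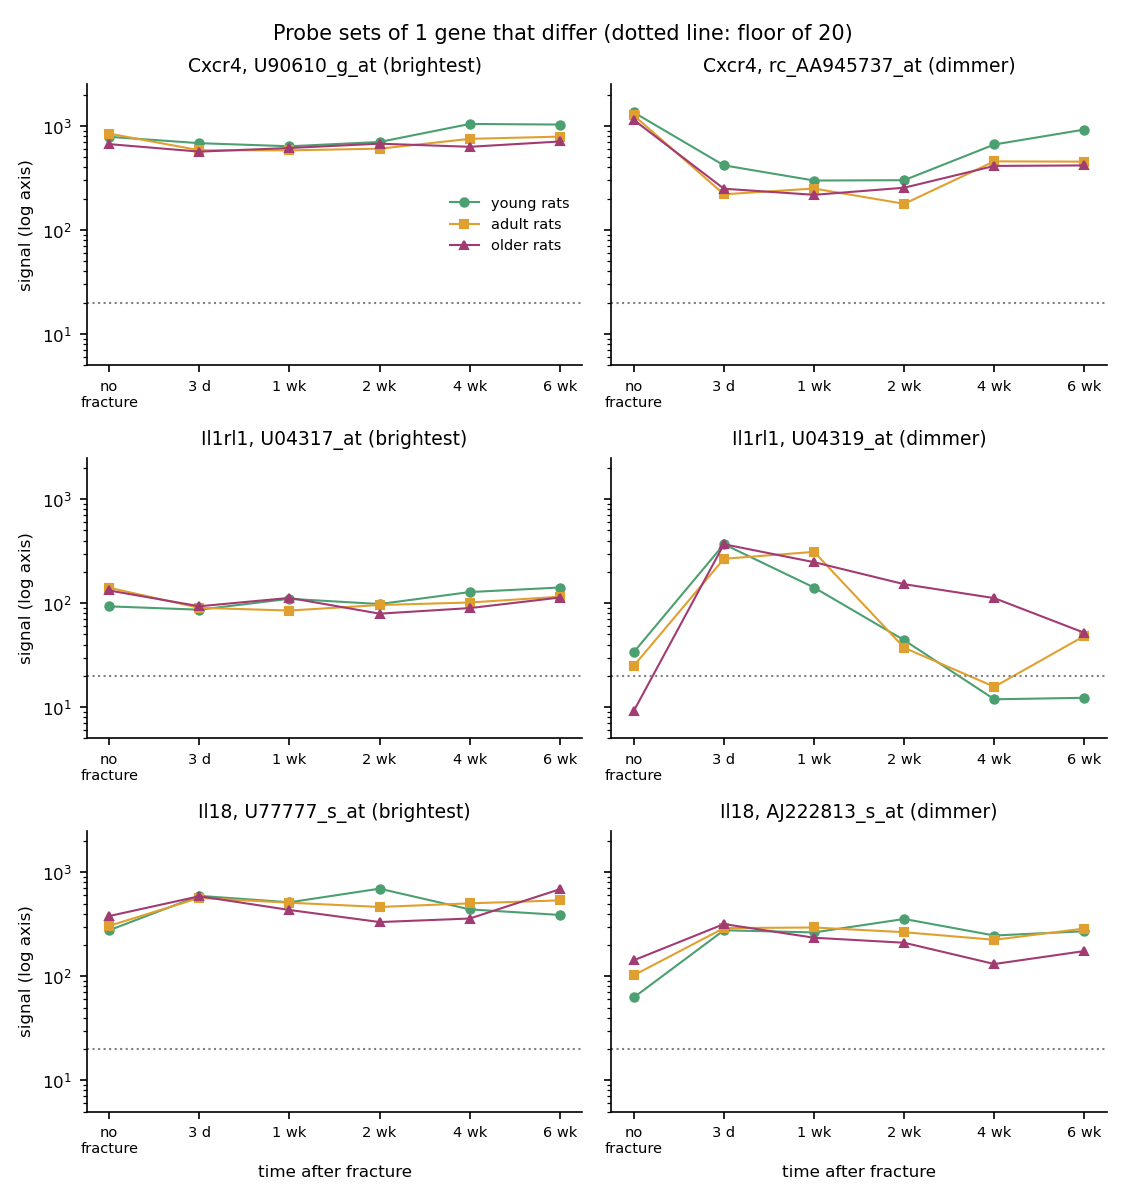
Signals (log axis) of the brightest probe set (left) and a dimmer one (right) of Cxcr4, Il1rl1 and Il18 on the 18 arrays over time. The right-hand panels move with fracture, for example Il1rl1 with 267 to 368 at 3 days, while the left-hand panels of Cxcr4 and Il1rl1 show no called change at any single time.

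Of the TNF family 1 of 3 ligands and 4 of 6 receptors were called at 1 or more times. No share of all genes called at any time is given here to set beside these counts. Tnf itself had signals of 9.4 to 35.9, below the floor on 16 of 18 arrays, and was not called. Tnfsf13, a B cell survival factor also known as APRIL, had 496 to 894 and was not called. Tnfsf4, the ligand of the T cell receptor Tnfrsf4, was called lower at all 5 times, but on a scale set by the floor. Its intact signals were 25.2, 26.7 and 25.9, and 14 of 15 fractured arrays were below 20, so that the fitted change of -0.37 ± 0.03 at 3 days (adjusted p = 1.9e-05) is that of signals just above the floor against the floor itself, at least 1.30-fold lower. With a floor of 100 it had no change. Tnfrsf4 was above the floor on 1 array.

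Tnfrsf11b encodes osteoprotegerin, the decoy receptor that restrains the formation of bone-resorbing osteoclasts. Its signals were 141, 151 and 133 with no fracture, 308, 536 and 320.3 at 3 days, 203, 192 and 221 at 1 week, 362, 213 and 171 at 2 weeks, 262, 328 and 227 at 4 weeks and 249, 163 and 259 at 6 weeks. Every fractured array was above every intact array, and the adult array at 3 days was the highest. It rose 2.65-fold at 3 days (log2 change 1.41 ± 0.29, adjusted p = 0.0031) and was called again at 4 weeks (log2 change 0.93 ± 0.29, adjusted p = 0.044), the 4-week call being lost without any 1 of the 6 arrays (adjusted p up to 0.17) and under quantile normalization or median centring. Tnfrsf1a, the main TNF receptor, had 1225, 1134 and 1319 at 3 days and 1133, 1254 and 1449 at 1 week, against 987, 715 and 928 with no fracture. Its log2 change was 0.49 ± 0.13 at 3 days, 0.55 ± 0.13 at 1 week, 0.42 ± 0.13 at 2 weeks and 0.44 ± 0.13 at 6 weeks (adjusted p = 0.011, 0.0073, 0.029 and 0.041). Only its 1-week call held without any 1 array (adjusted p up to 0.17 in the others). Tnfrsf1b, the second TNF receptor, had 36.2 to 140.1 and was not called.

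Tnfrsf21, a receptor with a death domain, had 844, 715 and 756 at 3 days, 932, 919 and 997 at 1 week, 663, 686 and 947 at 2 weeks and 955, 765 and 799.5 at 4 weeks, against 1117, 2113 and 1517 with no fracture. The 15 fractured arrays were all below the 3 intact ones. The log2 change was -0.99 ± 0.20, -0.69 ± 0.20, -1.02 ± 0.20 and -0.87 ± 0.20 (adjusted p = 0.0027, 0.021, 0.0032 and 0.013). Its dimmer probe set was called at no time, and the calls at 1 and 4 weeks were lost without any of 4 and any of 2 arrays (adjusted p up to 0.077). Tnfrsf8, a receptor of activated lymphocytes, had signals of 70, 183 and 72 with no fracture, 19.2, 24.9 and 46.9 at 3 days, 22.5, 26.2 and 67.8 at 1 week, 31.5, 90.2 and 27.6 at 2 weeks, 66.1, 28.6 and 71.8 at 4 weeks and 62.9, 73 and 48.4 at 6 weeks. At 3 days all arrays were below the intact ones (log2 change -1.77 ± 0.60, adjusted p = 0.037), and without any of 4 arrays the adjusted p was 0.059 to 0.16.

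Ifngr1, the binding chain of the interferon gamma receptor, was the only interferon gene called. Signals were 23.7, 34.6 and 39.2 with no fracture, 202, 88.4 and 195 at 3 days, 219, 209 and 156 at 1 week, 149, 138 and 149 at 2 weeks, 57.3, 166 and 121 at 4 weeks and 82.7, 75.9 and 78.2 at 6 weeks. All 15 fractured arrays were above all 3 intact arrays. The change was 4.77-fold at 3 days (log2 change 2.25 ± 0.40, adjusted p = 0.0011), 6.05-fold at 1 week (log2 change 2.60 ± 0.40, adjusted p = 0.00071), 4.57-fold at 2 weeks (adjusted p = 0.002), 3.29-fold at 4 weeks (adjusted p = 0.013) and 2.48-fold at 6 weeks (adjusted p = 0.048). The 4-week call was lost without the adult array of that time (adjusted p = 0.062) and the 6-week call without any 1 of 6 arrays (up to 0.12) and with log2(signal + 50). With a floor of 100, only the 1-week call was kept. Its ligand Ifng had 62.2, 57.8 and 27.9 at 3 days against 126, 88.5 and 68.9 with no fracture and was not called (log2 change -0.98 ± 0.43, adjusted p = 0.093). Ifnb1 had 10 to 61.7 and Ifnar1 had 99.4 to 199.6, both without a called change.

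Genes that carry or answer these signals also went both ways. Of 24 measured genes of cytokine signalling 5 were higher and 8 lower at 3 days, and 7 were higher and 5 lower at 1 week. Of all 4736 genes 20% were called higher and 21.9% lower at 3 days, and 18.4% and 19.6% at 1 week. The counts in this paragraph are therefore no result about these lists as groups. Stat3 and its feedback inhibitor Socs3 rose at 3 days (log2 change 1.91 and 1.95) together with Jak2, Cebpb and Cebpd (0.91, 0.49 and 0.64). The phosphatase Ptpn6 and the interferon factor Irf7 fell (-2.13 and -2.30). The others called lower at 3 days were Stat5a (-1.15), Stat5b, Cish, Casp1, Irf1 and Irf2, the last below the floor on 16 arrays. Socs3 was called at 3 days, 1 week and 2 weeks, which are the times at which Il6st was called. Among 23 measured genes known to be induced by cytokines, 4 were higher and 9 lower at 3 days, led by the protease inhibitor Timp1 (3.10) among those higher and by complement C3 (-4.60), Lcn2 (-3.61) and haptoglobin, Hp (-2.90), among those lower. Lcn2 is also 1 of the 5 neutrophil markers. Of 18 other cytokines and receptors whose symbols fall outside the rule, 2 were higher at 3 days, Mif (1.15) and Ackr3 (0.51), and 3 were lower, Pf4 (-2.18), Cd40 (-1.12) and Cntfr (-0.79). Each of these had an adjusted p below 0.05 in the same fit as the members.

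Age was compared over all 6 times, which stood in as the replicates of an age. No member was called for older against young rats, beside 0.549% of all genes, or for adult against young rats, beside 0.0845%. At an unadjusted p below 0.05 there were 9 members for older rats (14.75%, beside 15.54% of all genes) and 10 for adult rats (16.39%, beside 10.16%). The nearest to the threshold was Il33, which was higher in older than in young rats at 6 of 6 times (log2 difference 1.22 ± 0.23, adjusted p = 0.051). It was called, with an adjusted p of 0.019 to 0.042, under quantile normalization, under median centring, with log2(signal + 50), where only probe sets with a mean signal of at least 200 were tested, and without the young array of 3 days. Cxcl14 was lower in older rats at 5 of 6 times (log2 difference -0.59 ± 0.15, adjusted p = 0.11), with signals of 315 against 703 in young rats at 3 days. It was called where only probe sets with a mean signal of at least 200 were tested (adjusted p = 0.047) and without the young intact array (adjusted p = 0.034). Neither gene was called with a floor of 100, without the variance trend, without the time term or with the actin ratio added. The same held without the adult rats, with only the arrays compared, by the methods' t-test and on leaving out any other single array. Cxcl13, Il6 and Ccl2 had a log2 difference of 0.82 ± 0.29, 0.92 ± 0.31 and 0.49 ± 0.19 between older and young rats (adjusted p = 0.23, 0.2 and 0.27), higher in older rats at 5, 4 and 5 of 6 times. Il6 at 3 days, for example, had a signal of 1253 in older against 416 in young rats, each from a single pool. Whether the change with fracture depended on age was asked by an interaction of age with healing phase, with 4 residual degrees of freedom. It called 2 members at 1 and 2 weeks, beside 2.2% of all genes, and the same 2 at 4 and 6 weeks, beside 2.91%. They were Ccr2 and Il4, both with signals near the floor, and with log2(signal + 50) neither was called. With a floor of 100, which lies above every signal of Ccr2 and Il4, 3 members other than these were called.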

How the data were processed

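RNA of 18 pools (2 rats each, 36 rats in all) was hybridised to Affymetrix rat genome arrays. The deposited intensity values are MAS 5.0 signals, which the authors computed per probe set and scaled to an array mean of 500. Of 8799 probe sets 59 controls were left out and 8740 were tested, 7006 with 1 gene symbol in the platform annotation. Signals below 20 were set to 20 and log2 was taken. limma 3.58.1 (R 4.3.3) was fitted with time and age as additive terms and a trended variance, with 10 residual degrees of freedom and Benjamini-Hochberg adjustment over all probe sets at 0.05. Each time was set against no fracture, and adult and older rats against young rats. An interaction of age with healing phase was fitted separately. With pooled RNA and 1 array for each age and time the spread between rats is not measured, and the number of arrays limits the precision. The fit was tested on simulated data.

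Members and gene lists were chosen with earlier results of these data known. Members with a called log2 change of 1.5 or more were given in full, and Il33, Il1b and Tnfrsf11b were added after their values were seen. Of each list outside the rule the 4 genes with the largest changes could be named. The other genes of cytokine signalling called at 3 days and the fifth called cytokine were added after their values were seen. A further gene with such a symbol is not reported here. RefSeq promoter windows were matched to the 61 members by Entrez ID, which gave a window for 47 and none for 14. The alternatives changed the scaling (quantile normalization, median centring), the treatment of low signals (a floor of 100, log2(signal + 50), a mean signal of at least 200), the terms of the fit (no variance trend, no age term, the actin ratio as a covariate), the arrays used (without 1 array, without 1 age, only the arrays compared) and the test (the methods' t-test).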

Additional observations from a re-analysis of the deposited data

Results flagged for a closer look

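The change with fracture differed between older and young rats in 2 members by limma's interaction test, and neither of them with log2(signal + 50). For Ccr2, the older less young log2 difference was -1.21 with no fracture and 0 and -0.03 at 1 and 2 weeks, a change of 1.2 (adjusted p = 0.04), and the change at 4 and 6 weeks was 1.078 (adjusted p = 0.044). For Il4 the difference was 0.75 with no fracture and 0 at 1, 2 and 4 weeks, and its change was -0.7474 at 1 and 2 weeks (adjusted p = 0.038) and -0.8545 at 4 and 6 weeks (adjusted p = 0.021). Signals of Ccr2 with no fracture were 10.6 in older and 46.4 in young rats, and those of Il4 were 50.7 in older and 30.2 in young rats, so each rests on single arrays near the floor of 20. Il13 moved up with fracture at all 5 times in older rats and down at all 5 in young rats, with a mean log2 change that was higher by 2.332 in older rats. Its signals with no fracture, which all 5 changes share, were 33 in older and 168 in young rats, and this mean over 5 times was not itself tested. By healing phase the interaction of Il13 was 2.35 ± 0.60 (SE) at 1 and 2 weeks (adjusted p = 0.17) and 1.93 ± 0.60 at 4 and 6 weeks (adjusted p = 0.19), neither past the threshold.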

How the results depend on the processing

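No called value turned sign under any alternative. The counts that moved by over 1.5 times are given for 3 days, 1, 2, 4 and 6 weeks in that order, beside 22, 18, 15, 13 and 7 members called. With the actin ratio as a covariate they were 6, 5, 2, 1 and 4, without the adult rats 13, 7, 6, 1 and 0, without the older rats 11, 6, 2, 1 and 0, and with only the arrays compared 5, 2, 0, 0 and 0. By the methods' t-test they were 9, 9, 5, 1 and 0 after Benjamini-Hochberg adjustment and 6, 8, 5, 5 and 2 at an unadjusted 0.005, a limit that the methods set for a pair of arrays and not for this test. A floor of 100 gave 6 at 4 weeks and 3 at 6 weeks. Over the whole time course the F test called 20 members, against 5 with the actin ratio, 4 without the adult rats and 4 without the older rats. For older against young rats, where 0 were called, 1 was called under quantile normalization, 1 under median centring, 1 with log2(signal + 50) and 2 with a mean signal of at least 200. The interaction called 0 with log2(signal + 50). On leaving out 1 array at a time the counts ran over 18 to 23, 14 to 20, 10 to 17, 4 to 13 and 2 to 10, with 14 to 22 for the F test, 0 to 1 for older and 0 for adult against young rats. The lowest count at 4 weeks, 4, came without the adult array of that time, the lowest at 6 weeks, 2, without the adult or the older array of that time, and the highest at 6 weeks, 10, without the young intact array. Of the 75 called values 72 were kept under quantile normalization, 70 under median centring, 49 with a floor of 100 and 18 with the actin ratio. Leaving out ages or fitting fewer arrays leaves fewer samples, and otherwise the cause was not tested. Age, the only replicate number shared between times, was a term of the fit, and without it 64 of the 75 calls were kept.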
